A study of Mus musculus with 12 samples.

Results

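The Kruppel-like factors (KLFs) studied here were the genes Klf2, Klf4, Klf6, Klf7, Klf9, Klf10, Klf11, Klf13 and Klf15, named as a list of 9 genes and matched by symbol among the 23337 genes of the count tables. All 9 were found and all 9 passed the filter on low counts in every comparison. Their RNA was measured in cardiomyocytes (CMs, the beating muscle cells) in which Srf, the gene for serum response factor, had been inactivated after birth. Klf6 was up-regulated in neonatal KO CMs, and 1 of 9 factors called is close to the 8.59% of genes tested. Klf2 was up-regulated in adult KO CMs, 1 of 9 against 0.39%. In CTRL CMs, 5 of the 9 factors were lower at P90 than at P14, against 14.9% of genes called lower. The Klf6 call was lost in most fits that left out 1 sample, and the Klf2 call without P90 KO replicate 2.

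The 12 samples fell into 4 groups of 3. KO mice were Srf-flox/flox, so Cre recombinase could remove both copies of Srf. CTRL mice were Srf-flox/+ and kept an intact copy, so the comparison is with heterozygous recombined cells that had received the same virus. All mice carried a fluorescent reporter at the Rosa locus that Cre switches on, and all received AAV9-cTNT-Cre, an adeno-associated virus in which the cardiac troponin T promoter drives Cre in CMs. The virus was given at a low dose, which makes the heart a mosaic of recombined and untouched cells, and fluorescent CMs were then sorted. Injection was at P1 with collection at P14 for the neonatal model (P14 CTRL and P14 KO), and at P60 with collection at P90 for the adult model (P90 CTRL and P90 KO). The study gives its sorted samples as hearts, so p-values measure the spread between hearts.

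KLFs are transcription factors that bind GC-rich and CACCC-type DNA through zinc fingers at their C-terminal end. KLF2, KLF4, KLF6 and KLF7 belong to the branch whose members mostly activate transcription. KLF2 and KLF4 are known for endothelial cells, where flow raises them through MEF2 factors, and they are also induced quickly by many stimuli. KLF9, KLF10, KLF11 and KLF13 carry a repressor region that binds the SIN3A corepressor, with KLF9 known as a glucocorticoid and thyroid hormone target and KLF10 and KLF11 first described as genes induced by TGF-beta. KLF15 is a regulator of lipid, amino acid and glucose metabolism in heart muscle and a glucocorticoid target with a daily rhythm.

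Bases upstream of the transcription start are shown for the factors on which the KO comparisons turn and for the one that was highest at P90. RefSeq (GRCm38.p6) promoter entries matched 8 of the 9 genes, all but Klf10. Each sequence is the 250 bases before the RefSeq start on the plus strand, and capitals mark a MEF2 site in Klf2 (chr8:72318812-72319061), a CArG box with 1 mismatch in Klf6 (chr13:5861239-5861488) and the letters CACGTG (the E-box that clock factors bind) in Klf15 (chr6:90462326-90462575).
Klf2: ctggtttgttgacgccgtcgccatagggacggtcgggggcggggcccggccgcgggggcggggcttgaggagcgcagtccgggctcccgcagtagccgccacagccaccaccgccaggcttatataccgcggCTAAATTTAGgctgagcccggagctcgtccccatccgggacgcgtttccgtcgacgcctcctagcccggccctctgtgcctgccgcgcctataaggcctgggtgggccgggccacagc
Klf6: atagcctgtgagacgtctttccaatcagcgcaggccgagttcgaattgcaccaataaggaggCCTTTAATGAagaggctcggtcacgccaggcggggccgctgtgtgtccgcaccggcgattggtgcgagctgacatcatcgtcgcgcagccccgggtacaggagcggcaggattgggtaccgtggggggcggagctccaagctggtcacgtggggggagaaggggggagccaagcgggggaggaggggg
Klf15: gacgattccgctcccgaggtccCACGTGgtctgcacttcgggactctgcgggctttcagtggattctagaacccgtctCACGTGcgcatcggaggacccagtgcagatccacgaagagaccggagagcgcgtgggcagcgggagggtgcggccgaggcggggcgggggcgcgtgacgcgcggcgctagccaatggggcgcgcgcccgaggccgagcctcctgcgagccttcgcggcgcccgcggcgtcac
The CArG box is the element that SRF binds. On either strand, a perfect CArG box was found in 0 of the 8 windows, against 1.47% of all 32851 promoter windows of this length, and a box with 1 mismatch was found in Klf6 alone, against 17.5% of all windows. The MEF2 site, 118 to 109 bases upstream, was found in Klf2 alone, and 0.508% of windows held one. CACGTG was found in Klf4, Klf6, Klf11 and Klf15, with 2 copies in Klf15, against 6.02% of windows. GGGCGG, a GC box that Sp and Kruppel-like factors can bind, was found in 7 of the 8 (32.7% of windows), and CACCC in 5 of the 8 (52% of windows). The cAMP response element TGACGTCA (1.55% of windows) and the TATA letters TATAAA (12.4% of windows) were each found in 0 of the 8. These matches describe letters in a window and not binding.

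Total counts were 9740389 to 23103460 per sample. Levels are given in CPM, read counts divided by the scaled library size. The cardiomyocyte markers were abundant in every sample, with a sum over 8 genes of 122004 to 126075 CPM in P14 CTRL, 72458 to 80901 CPM in P14 KO, 105634 to 118585 CPM in P90 CTRL and 88133 to 91088 CPM in P90 KO. The KO sums were below the CTRL sums at both stages with no overlap. Myh6, which the study calls a direct Srf target, and Actc1 made up most of each sum. Mean Myh6 was 55725 CPM in P14 CTRL and 35516 CPM in P14 KO, and mean Actc1 was 32008 and 12255 CPM. At P90, Myh6, Actc1, Ryr2 and Ttn had lower means in KO, and Tnnt2, Tnni3, Myl2 and Pln higher ones. Endothelial markers, relevant because Klf2 and Klf4 are expressed in endothelium, summed to 212 to 540 CPM over 10 genes, fibroblast markers to 52.1 to 349 CPM over 8 genes, and macrophage markers to 5.15 to 13.9 CPM over 6 genes. Mural markers (smooth muscle and pericyte) summed over 7 genes to 954 to 1418 CPM in P14 CTRL, 382 to 593 CPM in P14 KO, 275 to 420 CPM in P90 CTRL and 200 to 210 CPM in P90 KO, and Acta2, a known SRF target, made up most of the sum in P14 CTRL. In neonatal KO, Acta2 fell (log2 change -1.87, edgeR adjusted p = 0.0128) and Cspg4, a pericyte proteoglycan, rose (1.34, edgeR adjusted p = 0.0157). Without Acta2 the other 6 summed to 83.8 to 172 CPM in P14 CTRL, 198 to 211 CPM in P14 KO, 73.2 to 106 CPM in P90 CTRL and 71.3 to 105 CPM in P90 KO. None of the 10 endothelial markers was at 0 in any sample. Srf itself was 64.0, 57.1 and 49.4 CPM in P14 CTRL against 32.1, 27.5 and 9.75 CPM in P14 KO, and 71.2, 59.1 and 81.1 CPM in P90 CTRL against 32.9, 28.9 and 28.1 CPM in P90 KO. KO samples were below CTRL samples at both stages. The log2 fold change of Srf was -1.30 ± 0.36 (SE) in neonatal KO, which missed the threshold (edgeR adjusted p = 0.0628), and -1.23 ± 0.13 (SE) in adult KO (edgeR adjusted p = 0.00347). In neonatal KO, Srf was called in 5 of 12 alternative fits, among them DESeq2 (DESeq2 adjusted p = 0.00223). In bulk samples of sorted cells, fewer cells of a type and less RNA per cell cannot be told apart.

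Per length of exon, Klf15 and Klf9 were the highest of the 9 factors and Klf13 and Klf4 the lowest in CTRL CMs. In P14 CTRL, Klf9 was 29.4 ± 0.740 CPM per kb (SD, n = 3) and Klf15 was 28.0 ± 13.5 CPM per kb (SD, n = 3), and their samples overlapped. Klf2 followed at 16.0 CPM per kb, above Klf10 (10.5 CPM per kb) with no overlap. From Klf10 through Klf6 (9.08 CPM per kb) and Klf11 (7.67 CPM per kb) to Klf7 (5.63 CPM per kb), neighbours in the order overlapped. Klf13 (3.23 CPM per kb) stood below Klf7 with no overlap. Klf4 (3.21 CPM per kb) overlapped Klf13, and its highest sample (4.49 CPM per kb) lay just above the lowest of Klf7 (4.46 CPM per kb). In P90 CTRL the top of the order was spread out. Klf15, at 43.2 ± 4.89 CPM per kb (SD, n = 3), was above Klf9 at 21.9 ± 3.44 CPM per kb (SD, n = 3), Klf9 was above Klf2 at 8.91 ± 0.442 CPM per kb (SD, n = 3), and Klf2 was above Klf6 at 5.96 CPM per kb, each with no overlap. In P90 KO, Klf2 was 17.8 ± 2.23 CPM per kb (SD, n = 3) and overlapped Klf9 at 21.1 CPM per kb. In P14 KO, Klf6 was 16.0 ± 0.806 CPM per kb (SD, n = 3) and overlapped Klf2 at 16.2 CPM per kb and Klf10 at 14.0 CPM per kb. The 9 factors together made up 87.2 to 92.0% of the length-scaled level summed over all 17 Klf genes in a sample. Of the 8 remaining Klf genes, Klf3, a repressor, was 13.8 to 24.5 CPM and Klf12 11.1 to 17.5 CPM, and they held most of the rest. These orders rest on the exon lengths in the tables, which run from 1336 bp for Klf7 to 6396 bp for Klf13.

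**Figure D1:**
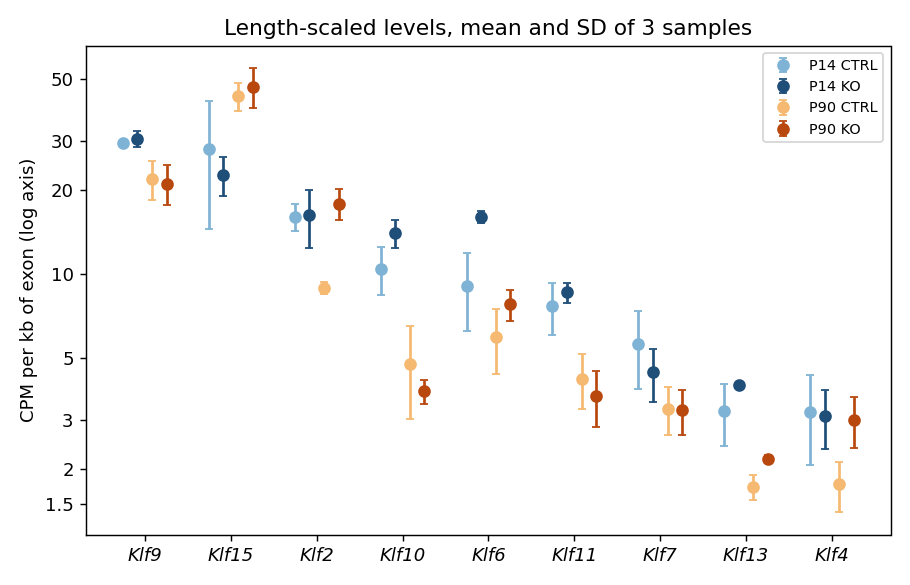
Length-scaled level of each Kruppel-like factor (y axis, CPM per kb of exon, log axis) by gene (x axis), with points for the mean and bars for the SD of 3 samples in each of the 4 groups. Klf15 stood highest at P90 (43.2 CPM per kb in CTRL), Klf2 was lower in P90 CTRL (8.91) than in the other groups, and Klf6 was highest in P14 KO (16.0).

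The neonatal comparison asked which factors differed in CMs that lost Srf during maturation. Klf6, an activator induced in injured tissue, was the factor that passed the test. It lies on chromosome 13 at 5861489 to 5870393 (mm10, plus strand). Klf6 was 51.7, 29.0 and 34.2 CPM in P14 CTRL and 70.2, 68.9 and 63.8 CPM in P14 KO. Every KO sample was above every CTRL sample, and the KO samples lay close together. Klf6 rose by 0.82 ± 0.20 on the log2 scale (SE), a fold of 1.76 (edgeR quasi-likelihood test, Benjamini-Hochberg adjusted over all genes, adjusted p = 0.0396). It was 1 of 9 factors called, a count close to the share of 8.59% of the 12546 genes tested. With 1 sample left out, the fold change stayed between 0.65 and 1.09 on the log2 scale. The call was lost on leaving out P14 CTRL replicate 2 (0.65, edgeR adjusted p = 0.0578), P14 CTRL replicate 3 (0.74, edgeR adjusted p = 0.0817) or P14 KO replicate 1, 2 or 3 (edgeR adjusted p = 0.131, 0.133 and 0.115).

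Of the factors that did not pass the test in neonatal KO, Klf10 also had groups that did not overlap. Klf10 (chromosome 15 at 38294413 to 38300707, minus strand), the first of the TGF-beta induced factors, was 36.4, 24.7 and 34.5 CPM in P14 CTRL and 41.7, 47.9 and 38.4 CPM in P14 KO. Its log2 fold change was 0.42 ± 0.16 (SE, edgeR adjusted p = 0.151). Groups without overlap and with KO higher were found for 2 of the 9 factors and for 16% of genes tested. Klf11 (chromosome 12 at 24651371 to 24662782, plus strand), its closest relative, was 34.7, 23.1 and 33.9 CPM in CTRL and 31.2, 34.7 and 36.8 CPM in KO, and the groups overlapped (log2 fold change 0.16 ± 0.17, SE). In Klf6, Klf10 and Klf11 alike, P14 CTRL replicate 2 was the lowest of all P14 samples.

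Klf2, Klf4 and Klf7 overlapped between the neonatal groups. Klf2 (chromosome 8 at 72319062 to 72321654, plus strand) was 32.6, 28.3 and 26.3 CPM in P14 CTRL and 26.0, 37.3 and 25.0 CPM in P14 KO. The highest sample was a KO sample and so was the lowest. Its log2 fold change was 0.01 with a 95% interval of -0.38 to 0.41 (edgeR adjusted p = 0.975). Klf4 (chromosome 4 at 55527137 to 55532475, minus strand), a pluripotency and endothelial factor, was 13.7, 6.90 and 8.78 CPM in CTRL and 8.41, 12.1 and 7.88 CPM in KO, with overlap and an interval of -0.69 to 0.58 around -0.05. Klf7 (chromosome 1 at 64035671 to 64121389, minus strand), known from neurons, was 10.2, 5.95 and 6.38 CPM in CTRL and 5.48, 7.37 and 4.95 CPM in KO, again with overlap (log2 fold change -0.35 ± 0.27, SE). For all of Klf2, Klf4 and Klf7, P14 KO replicate 2 was the highest KO sample.

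The remaining repressors and Klf15 also did not pass the test in neonatal KO. Klf9 (chromosome 19 at 23141226 to 23166911, plus strand) was the steadiest, at 93.7, 98.5 and 95.7 CPM in P14 CTRL and 106, 93.0 and 99.7 CPM in P14 KO, and its 95% interval of -0.18 to 0.28 was the narrowest of the 9. Klf13 (chromosome 7 at 63886351 to 63938915, minus strand), a regulator studied in heart development and lymphocytes, was 20.8, 25.7 and 15.4 CPM in CTRL and 26.1, 25.4 and 25.3 CPM in KO. P14 CTRL replicate 2 lay above 2 of the KO samples, and the other CTRL samples lay below all of them. Klf15 (chromosome 6 at 90462626 to 90475209, plus strand) was 52.9, 99.2 and 40.5 CPM in CTRL and 56.3, 56.9 and 42.4 CPM in KO. One CTRL sample, replicate 2, was far above the rest, and the log2 fold change of -0.31 ± 0.30 (SE) became 0.15 without it.

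**Figure D2:**
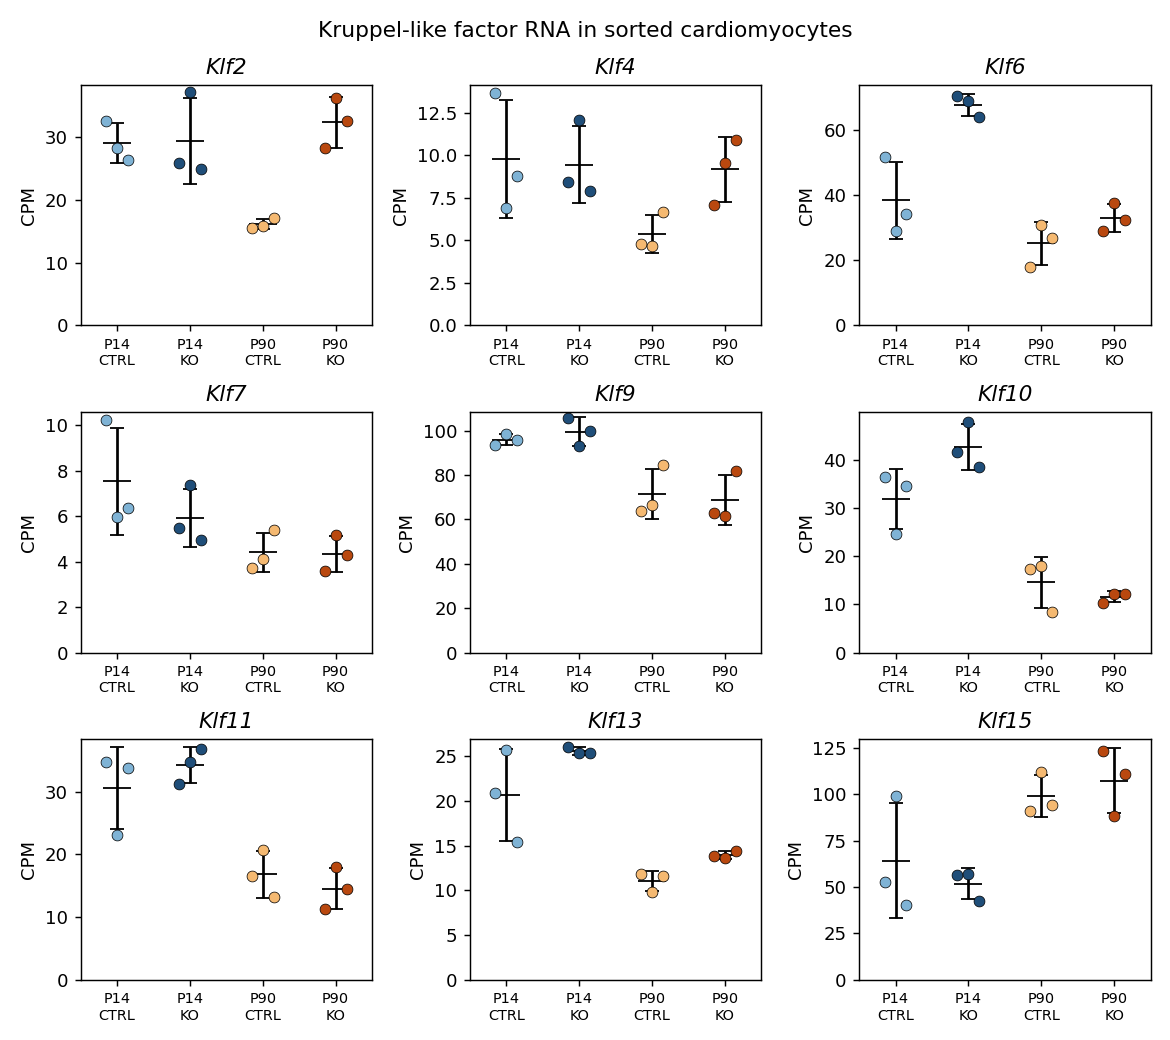
Level of each factor (y axis, CPM) in every sample of the 4 groups (x axis), with a line at the mean and bars for the SD of 3 samples. All P14 KO samples of Klf6 (63.8 to 70.2 CPM) lie above P14 CTRL, and all P90 CTRL samples of Klf2 (15.6 to 17.1 CPM) lie below the other groups.

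The adult comparison asked the same of mature CMs. Klf2 was the factor that passed the test, with a fold of 2.01. It was 15.6, 15.9 and 17.1 CPM in P90 CTRL and 28.3, 36.3 and 32.6 CPM in P90 KO. The CTRL samples lay close together and all KO samples were above them. Klf2 rose by 1.01 ± 0.13 on the log2 scale (SE, edgeR adjusted p = 0.00755), and it ranked 10 by p among the 11808 genes tested. Called genes were few in this comparison, 1 of the 9 factors against 0.39% of genes. Without P90 KO replicate 2, the highest KO sample, the log2 fold change was 0.92 and the call was lost (edgeR adjusted p = 0.0594). It was also lost when the dispersion was taken from all 12 samples (1.00, edgeR adjusted p = 0.0777).

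Klf4 and Klf13 had groups without overlap in adult KO but did not pass the test. Klf4 was 4.80, 4.67 and 6.65 CPM in P90 CTRL and 7.10, 9.55 and 10.9 CPM in P90 KO (log2 fold change 0.77 ± 0.21, SE, edgeR adjusted p = 0.126). Klf13 was 11.8, 9.78 and 11.6 CPM in CTRL and 13.8, 13.6 and 14.4 CPM in KO (0.33 ± 0.13, SE, edgeR adjusted p = 0.265). With Klf2, that makes 3 of the 9 factors with every KO sample above every CTRL sample, against 10.3% of genes tested. Klf6 was 17.8, 30.7 and 26.9 CPM in CTRL and 29.0, 37.4 and 32.2 CPM in KO. A single CTRL sample, replicate 2, lay above the lowest KO sample, and the log2 fold change was 0.41 with a 95% interval of 0.01 to 0.81 (edgeR adjusted p = 0.296).

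Klf7, Klf9, Klf10, Klf11 and Klf15 overlapped between the adult groups. Klf7 was 3.71, 4.13 and 5.38 CPM in P90 CTRL and 3.58, 5.17 and 4.29 CPM in P90 KO, with a 95% interval of -0.44 to 0.44. Klf9 was 63.6, 66.4 and 84.3 CPM in CTRL and 62.9, 61.6 and 81.7 CPM in KO, with replicate 3 the highest of both groups and an interval of -0.36 to 0.26. Klf10 was 17.3, 17.9 and 8.39 CPM in CTRL and 10.2, 12.2 and 12.2 CPM in KO. Its fold change was -0.32 ± 0.24 on the log2 scale (SE), and the lowest sample was a CTRL sample. Klf11 was 16.6, 20.7 and 13.2 CPM in CTRL and 11.3, 17.9 and 14.4 CPM in KO (interval -0.62 to 0.24). Klf15 was the most abundant of the 9 at this stage, with 91.1, 112 and 94.1 CPM in CTRL and 123, 88.2 and 111 CPM in KO (interval -0.17 to 0.42).

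The stage by genotype interaction, the neonatal minus the adult KO effect in a fit of all 12 samples, tested whether a factor responded differently at the 2 stages. Klf2 was again the factor that passed. Its KO effect was 0.99 lower on the log2 scale in the neonatal than in the adult model (-0.99 ± 0.23, SE, edgeR adjusted p = 0.0468), 1 of 9 factors called against 1.78% of the 12841 genes tested. This value lay close to the threshold and the call was lost in 10 of 12 fits that left out 1 sample (-1.20 to -0.88, edgeR adjusted p up to 0.129). It was kept without P14 CTRL replicate 3 and without P14 KO replicate 2. Klf6, called in the neonatal model only, was not shown to respond differently, since its interaction was 0.42 with a 95% interval of -0.23 to 1.06 (edgeR adjusted p = 0.492). Klf4 (-0.82 ± 0.38, SE, edgeR adjusted p = 0.260) and Klf10 (0.75 ± 0.33, SE, edgeR adjusted p = 0.238) had unadjusted p-values under 0.05 and did not pass after adjustment, and the intervals of the other 5 held 0.

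In CTRL CMs, most of the factors were lower at P90 than at P14, and Klf15 was the single one with a higher mean. Klf2, Klf9, Klf10, Klf11 and Klf13 passed the test in the lower direction. That is 5 of 9 factors, against 14.9% of the 12294 genes tested called lower and 29.3% called in either direction, and with Klf4 and Klf7 it makes 7 of 9 with every P90 CTRL sample below every P14 CTRL sample, against 22.8% of genes. The median log2 change over the 9 was -0.84, and over all genes it was -0.01. Stage cannot be told apart from how the neonatal and the adult samples were handled and sequenced, and P90 CTRL is also the reference of the adult KO comparison, so the Klf2 values of both comparisons share those 3 samples.

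Klf10 had the largest fall of the 9 in CTRL CMs, from 31.8 ± 6.29 to 14.5 ± 5.35 CPM (SD, n = 3), which is -1.13 ± 0.28 on the log2 scale (SE, edgeR adjusted p = 0.0156). Klf13 fell from 20.7 ± 5.11 to 11.1 ± 1.12 CPM (SD, n = 3, log2 change -0.89, edgeR adjusted p = 0.0107), and Klf11 from 30.6 ± 6.51 to 16.8 ± 3.72 CPM (SD, n = 3, log2 change -0.87, edgeR adjusted p = 0.0159). Klf2 fell from 29.1 ± 3.21 to 16.2 ± 0.803 CPM (SD, n = 3, log2 change -0.84, edgeR adjusted p = 0.00266). The repressor branch held 4 of the 5 calls, and Klf9 was the smallest of them (-0.42 ± 0.13, SE, edgeR adjusted p = 0.0378). Klf4 (-0.87 ± 0.29, SE, edgeR adjusted p = 0.0508), Klf7 (-0.78 ± 0.28, SE, edgeR adjusted p = 0.0650) and Klf6 (-0.62 ± 0.26, SE, edgeR adjusted p = 0.0992) did not pass.

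Klf15 was 64.2 ± 30.9 CPM in P14 CTRL and 99.0 ± 11.2 CPM in P90 CTRL (SD, n = 3), a log2 difference of 0.63 ± 0.28 (SE, edgeR adjusted p = 0.121). P14 CTRL replicate 2 alone, at 99.2 CPM, reached the P90 range. Without that sample the difference was 1.06 (edgeR adjusted p = 0.00092), and all 9 factors then passed the test. Leaving out P14 CTRL replicate 1 had the opposite effect, with 2 factors still called (Klf2 and Klf13), and without P90 CTRL replicate 1 there were 3. Klf9 lost its call in 4 of the 6 fits that left out a CTRL sample, Klf11 in 3 (without P14 CTRL replicate 1, P90 CTRL replicate 1 or P90 CTRL replicate 3) and Klf10 in 1 (without P14 CTRL replicate 1). Klf9 kept it without P14 CTRL replicate 2 and without P90 CTRL replicate 3.

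**Figure D3:**
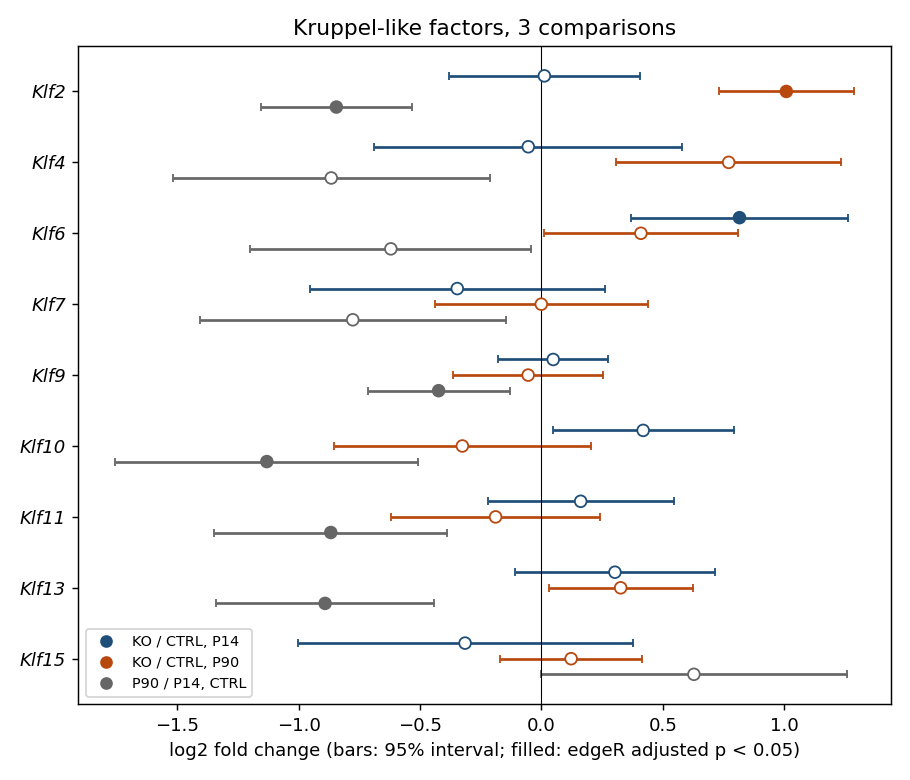
Log2 fold change (x axis) of each factor (y axis) in neonatal KO against CTRL, adult KO against CTRL, and P90 CTRL against P14 CTRL, with bars for the 95% interval and filled points where the edgeR adjusted p was under 0.05. Filled points are Klf6 in neonatal KO (0.82), Klf2 in adult KO (1.01) and 5 factors in CTRL, all on the negative side.

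Ordered by group mean, the factors followed different patterns over the 4 groups. Klf2 had 3 overlapping groups, P90 KO, P14 KO and P14 CTRL, and P90 CTRL below them. Klf6 was highest in P14 KO, with no overlap to P14 CTRL. Klf13 ran from P14 KO (25.6 ± 0.420 CPM, SD, n = 3) through P14 CTRL to P90 KO (13.9 ± 0.454 CPM, SD, n = 3) and P90 CTRL. Its last 3 groups did not overlap. Klf9, Klf10 and Klf11 had both P14 groups above both P90 groups, with overlap within a stage except for Klf10 at P14.

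Within groups, the activator branch varied together from sample to sample. Over the 12 samples, with each value taken as its deviation from the mean of its group on the log2 scale, Pearson's r was 0.92 for Klf4 and Klf7, 0.84 for Klf2 and Klf7, 0.77 for Klf2 and Klf4 and 0.75 for Klf6 and Klf7. Klf10 and Klf11 also moved together (0.75), as did Klf13 and Klf15 (0.71). Klf6 and Klf11, of different branches, had 0.52, above Klf2 and Klf6 within the activator branch (0.44). Negative values were found for Klf11 with Klf15 (-0.61) and with Klf13 (-0.61). Over all 36 pairs, 23 were positive and the median was 0.10, against -0.04 for the 9 factors paired with 9467 genes of at least 5 CPM. These correlations are a description of 12 samples, in which the genes of a sample share its cell isolation, library and depth. In P14 CTRL, replicate 1 was highest in Klf2, Klf4, Klf6 and Klf7, and replicate 2 was highest in Klf13 and Klf15. Replicate 1 also had the highest sums of endothelial (540 CPM) and fibroblast markers (326 CPM) in P14 CTRL. Its mural sum (1308 CPM) was below that of replicate 2 (1418 CPM). The part of other cells in these correlations was not tested.

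**Figure D4:**
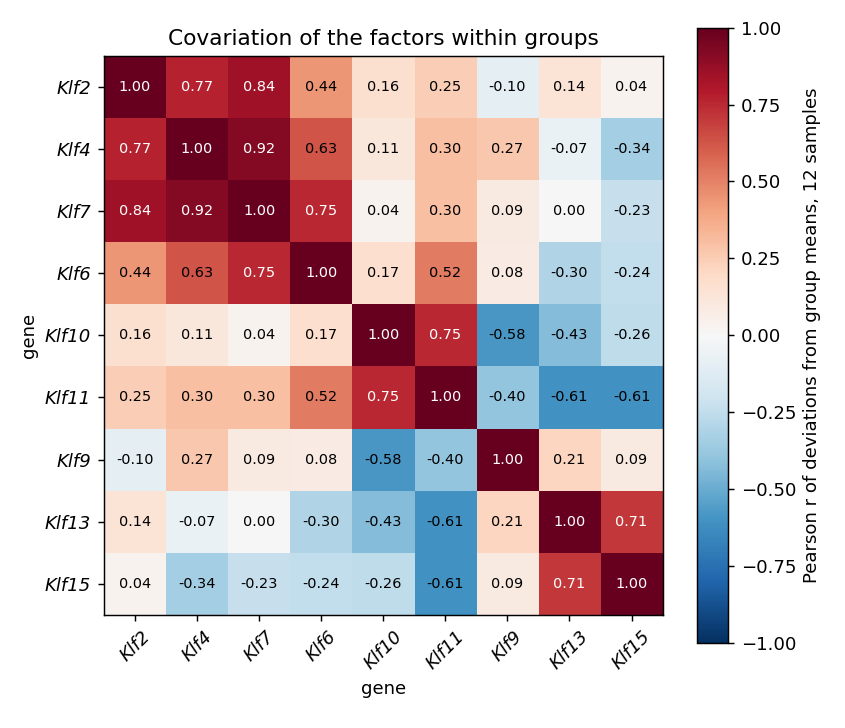
Pearson's r for each pair of factors (both axes), computed over 12 samples from log2 CPM deviations from group means, with red for positive and blue for negative values. Klf2, Klf4, Klf7 and Klf6 form a block of positive values (0.44 to 0.92), and Klf11 is negative with Klf13 and Klf15 (-0.61 each).

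By the same measure, the genes most like each factor over the 12 samples were named. For Klf2 they were Sat1, a polyamine acetyltransferase (r = 0.96), Tm4sf1, a tetraspanin-like protein abundant in endothelium (0.91), and Tmem2, a cell surface hyaluronidase (0.91). For Klf4 they were Myl12b, a regulatory light chain of nonmuscle myosin (0.94), Arhgap23 (0.94) and Acvrl1, an endothelial receptor of the TGF-beta family (0.94). Klf7 was closest to the stress-induced genes Gadd45g (0.97) and Ier5 (0.94) and to Adamts10 (0.93). Klf6 was closest to Apaf1, the core of the apoptosome (0.94), Sertad2 (0.92) and Ddx50 (0.90). Klf9 went with Dyrk1a (0.95), Nlk (0.91) and Sox6 (0.91), Klf10 with Tom1 (0.94), Rhbdd1 (0.92) and Epb4.1l2 (0.91), and Klf11 with the proapoptotic gene Bcl2l11 (0.97), Rgl1 (0.93) and Rrbp1 (0.92). Klf13 went with the glycolytic enzyme gene Pgam1 (0.95), Gnao1 (0.94) and Exosc1 (0.94), and Klf15 with Cfl2, the cofilin of muscle (0.98), Mbnl2 (0.97) and Zfp706 (0.97). None of the 27 is another of the 9 factors. They are the extremes of 9467 genes over 12 samples.

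Other genes of the family did not pass the test in any comparison. Of 17 further Klf and Sp genes, 8 were tested in neonatal KO, 7 in adult KO, 8 in the interaction and 7 in CTRL, and 0 were called by edgeR in each. Unadjusted p-values under 0.05 were found for 3, 0, 0 and 3 of them, and DESeq2 also called 0 in each. Klf3 was 17.1 to 22.5 CPM in P14 KO and 13.8 to 15.4 CPM in P90 KO, and Sp3, a widely expressed relative, 33.0 to 57.0 CPM over all samples.

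Of 12 genes that KLF15 is known to regulate, 6 were down-regulated in neonatal KO, while Klf15 itself did not pass the test. None of the 12 was called higher (median log2 change -0.48, against 0.001 over all genes), where 4.6% of all genes were called lower. The median includes the KLF15-repressed genes Ctgf, Nppa and Nppb. Their means in P14 CTRL and P14 KO were 141 and 208 CPM (Ctgf), 267 and 723 CPM (Nppa), and 123 and 126 CPM (Nppb). The study reports oxidative phosphorylation and mitochondria as the main terms among genes down-regulated in neonatal KO. Whether the fall was particular to KLF15 targets was not tested. Kcnip2, a subunit of the transient outward potassium channel, was 64.9, 55.4 and 54.0 CPM in P14 CTRL and 26.0, 19.3 and 8.34 CPM in P14 KO (-1.71 ± 0.34, SE, edgeR adjusted p = 0.0227). Slc2a4, the insulin-responsive glucose transporter, was 374, 426 and 349 CPM in CTRL and 228, 249 and 163 CPM in KO (-0.85 ± 0.17, SE, edgeR adjusted p = 0.0225). Both had every KO sample below CTRL. Hadha, an enzyme of fatty acid oxidation (-0.56), and Slc25a20, the mitochondrial carnitine carrier (-0.62), also fell. In adult KO, 1 of the 12 was lower and 0 higher, with a median of 0.04, where 0.152% of all genes were called lower. That gene was Kcnip2, at 106, 98.4 and 93.5 CPM in P90 CTRL and 50.8, 50.5 and 49.6 CPM in P90 KO (-0.98 ± 0.09, SE, edgeR adjusted p = 0.00225). In the interaction, 0 of the 12 passed by edgeR, 6 had an unadjusted p under 0.05, and DESeq2 called 3.

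Immediate early genes, which cells switch on within minutes of a stimulus and to which Klf2, Klf4, Klf6 and Klf10 are often counted, were examined beside the KLFs. In neonatal KO, 3 of 16 tested were higher and 0 lower by edgeR, against 3.99% of genes called higher. These were Myc (1.75 ± 0.31, SE, edgeR adjusted p = 0.0173), Atf3 (1.17 ± 0.26, SE, edgeR adjusted p = 0.0302) and Jund (0.72 ± 0.16, SE, edgeR adjusted p = 0.0345). DESeq2 called 3 of the 16 higher and 1 lower. In adult KO, 0 of 17 passed by edgeR, 14 had an unadjusted p under 0.05, and DESeq2 called 4, all higher. Every KO sample was above every CTRL sample for 10 of the 17, against 10.3% of genes, and the median log2 change of the 17 was 0.79 against 0.01 over all genes. The 18 genes summed to 1175, 1702 and 2053 CPM in P90 CTRL and to 2291, 3935 and 2579 CPM in P90 KO. P90 KO replicate 2, with the highest sum, was also the highest P90 sample in Klf2 and Klf6. Klf4 was highest in P90 KO replicate 3 (10.9 CPM), and Klf10 in P90 CTRL replicate 2 (17.9 CPM). The 10 endothelial markers summed to 218, 283 and 219 CPM in P90 CTRL and 212, 299 and 327 CPM in P90 KO, 0 of the 10 passed by edgeR or DESeq2, 1 had an unadjusted p under 0.05, and 3 had KO above CTRL without overlap. P90 KO replicate 1 had the lowest endothelial sum of the P90 samples. Its Klf2 level of 28.3 CPM was the lowest of the P90 KO samples and above all P90 CTRL samples. The parts of cell isolation and of endothelial cells in the Klf2 difference were not tested.

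**Figure D5:**
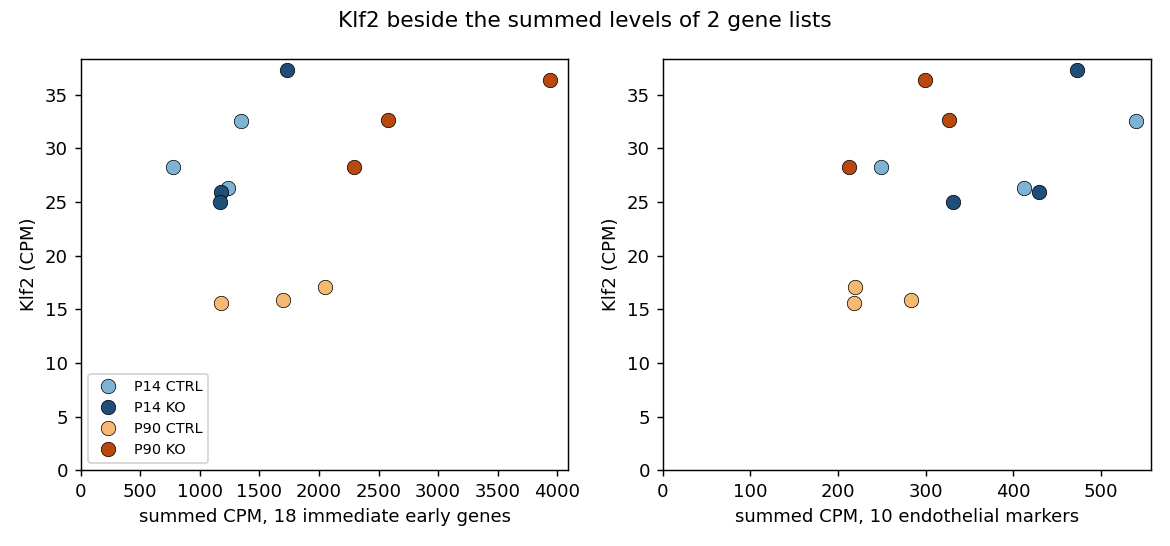
Klf2 level (y axis, CPM) in each of the 12 samples against the summed CPM of 18 immediate early genes (left x axis) and of 10 endothelial markers (right x axis), coloured by group. The P90 KO samples lie at 2291 to 3935 CPM of immediate early genes and at 212 to 327 CPM of endothelial markers, the latter overlapping P90 CTRL (218 to 283 CPM).

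Glucocorticoid targets and receptors, examined because Klf9 and Klf15 respond to the hormone, gave 0 calls by edgeR of 11 tested in neonatal KO (2 with an unadjusted p under 0.05, and 1 by DESeq2) and 0 of 12 in adult KO (3 with an unadjusted p under 0.05, and 2 by DESeq2). Between the CTRL groups, 2 of the 12 were higher and 4 lower at P90, against 14.5% and 14.9% of all genes. Of 15 circadian clock genes, Per2 was the 1 that rose in neonatal KO (1.14 ± 0.17, SE, edgeR adjusted p = 0.0119), where 3.99% of all genes were called higher, and 0 passed by edgeR in adult KO, where 3 had an unadjusted p under 0.05 and DESeq2 called 2. Between the CTRL groups, 3 were higher and 6 lower at P90, where 14.5% of all genes were called higher and 14.9% lower. Named after their values were seen, Arntl, the gene for BMAL1, was 2.03 higher on the log2 scale. Per1 (-1.93), Per2 (-1.82) and Per3 (-2.06) were lower. Of the other clock genes called, Clock and Nr1d1 were higher, and Npas2, Hlf and Bhlhe40 lower. Mean Nr1d1 was 47.2 CPM in P14 CTRL and 123 CPM in P90 CTRL, and mean Npas2 was 13.0 and 5.47 CPM. Klf9, Klf10 and Klf15 are known to follow the clock, the hour of collection is not given in the sources used here, and its part in the CTRL values was not tested.

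TGF-beta early response genes, the class in which Klf10 and Klf11 were first described, gave 0 calls by edgeR of 8 tested in neonatal KO (3 with an unadjusted p under 0.05, and 1 by DESeq2) and 0 of 7 in adult KO (1 with an unadjusted p under 0.05, and 0 by DESeq2). In CTRL CMs, 5 of 8 were lower at P90 and 0 higher, with a median log2 change of -0.81, where 14.9% of all genes were called lower. The endothelial and fibroblast markers moved the same way as the KLFs between the CTRL groups. Against the same 14.9% of genes, 8 of 10 endothelial markers were lower at P90, with sums of 249 to 540 CPM in P14 CTRL and 218 to 283 CPM in P90 CTRL, and of 7 fibroblast markers tested 5 were lower, with sums of 117 to 326 CPM and 52.1 to 73.4 CPM. P14 CTRL replicate 2 had the lowest sums of both lists at P14. The part of these cells in the lower KLF levels was not tested.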

How the data were processed

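Fluorescent CMs sorted by flow cytometry were profiled by RNA sequencing in 12 samples (SMART-Seq v4 cDNA, Nextera XT libraries, single-end reads on a NextSeq instrument). The authors aligned reads to mm10 with STAR 2.5.3a and counted them per gene with featureCounts (Subread 1.5.2), per the submitters' processing notes, and deposited raw counts in one table per stage. Whether counting used strand, and what was done with multimapping reads, is not given in the sources used here. GENCODE places genes on the opposite strand within the spans of Klf7 and Klf13, and no other gene in the tables shares exon positions with the 9 factors. Total counts were 9740389 to 23103460, and a floor of 3 counts was 0.130 to 0.308 CPM, a limit that reflects counting error alone.

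Groups were taken from the sample titles. In R 4.3.3, edgeR 4.0.16 (filterByExpr, TMM scaling, quasi-likelihood F-test, Benjamini-Hochberg adjustment over all genes tested, threshold 0.05) compared KO with CTRL in the 6 samples of each stage, P90 with P14 in the 6 CTRL samples, and the 2 KO effects in all 12. Adjusted p-values are over all genes tested. The SE is the log2 fold change over the square root of F, and 95% intervals use the t distribution with the degrees of freedom of that test. CPM values use a single TMM scaling of all 12 samples. Deviations from group means were taken on log2(CPM + 0.5), for genes with a mean of at least 5 CPM, and the 3 genes closest to each factor are named. Other genes named are those past the test in a KO comparison, at most 4 per list and stage. Klf3, Klf12, Sp3 and the clock genes other than Per2 were chosen after their values were seen. DESeq2 1.42.0, RLE factors, other filters, a replicate block, a fit of all 12 samples and leaving out each sample were alternatives. Procedures were tested on simulated counts with 200 changed genes per comparison. False calls were 6.06, 7.19, 2.15 and 6.72% of calls in the neonatal, adult, interaction and CTRL comparisons. In that order, changes of 2-fold were recovered in 67.2, 83.6, 41.8 and 71.6% of genes. Changes of 1.5-fold were recovered in 26.9, 50.7, 5.97 and 23.9%. A factor that did not pass can therefore still have changed. The 9 factors and the gene lists were chosen with earlier results of these data known, so they are no independent sample of genes. Promoter and motif windows were taken from RefSeq (GRCm38.p6), upstream of the start only.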

Additional observations from a re-analysis of the deposited data

Results flagged for a closer look

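The KO effect on Klf2 differed between the stages by a test of the difference itself, close to the threshold. The call was lost in most fits that left out 1 sample. Stage cannot be told apart from how the samples were handled and sequenced. The neonatal minus the adult effect was -0.99 on the log2 scale (edgeR adjusted p = 0.0468), where Klf2 averaged 29.1 CPM in P14 CTRL and 29.4 CPM in P14 KO, and 16.2 CPM in P90 CTRL and 32.4 CPM in P90 KO. The groups that set it apart were the 3 P90 CTRL samples, which were lower than all other samples.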

How the results depend on the processing

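Counts of called factors moved as follows. In adult KO, 2 factors (Klf2 and Klf4) were called with no filter on low counts, and 0 with all 12 samples in one fit. In CTRL, where 5 were called, 9 were called with no filter, 8 with all 12 samples and 7 by DESeq2, which added Klf4 and Klf7. Leaving out 1 sample at a time gave 0 to 1 in neonatal KO, 0 to 1 in adult KO, 0 to 1 in the interaction and 2 to 9 in CTRL. Over all genes, calls in adult KO ran from 3 (all 12 samples) to 701 (no filter) around 46, with 351 by DESeq2; in neonatal KO DESeq2 gave 1788 and the fit of all 12 samples 2088 beside 1078, and in the interaction DESeq2 gave 912 and no filter 474 beside 228. The cause was not tested.

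Same-numbered KO and CTRL samples are not said to share a litter. Their deviations correlated at 0.0156 to 0.313 at P14 (mean 0.185) and 0.0672 to 0.332 at P90 (mean 0.174). Differently numbered pairs ran from -0.276 to 0.134 at P14 (mean -0.0954) and -0.384 to 0.228 at P90 (mean -0.0872). Deviations from a group mean cancel within the group, so the mean over same-numbered pairs largely fixes that over the others. The differently numbered mean is therefore no independent contrast. Whether the numbers mark a pairing was not tested. The replicate block called 1, 2 (Klf2 and Klf4), 1 and 6 factors in the neonatal, adult, interaction and CTRL comparisons, and 1529, 655, 687 and 3139 genes. In the CTRL comparison alone, the block joined same-numbered samples across P14 and P90. The labels give no link between those samples, so its 6 factors rest on an arbitrary block.

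Of 501 alternative values of single genes, 427 kept their direction and their side of the threshold, 26 lost a call, 21 gained one and 27 changed sign, all 27 of them of values not called either way. With a replicate block, Klf2 was -0.0035 in neonatal KO, Klf7 was -0.016 in adult KO and Klf13 was 0.0019 in the interaction. Klf7 in adult KO was also -0.0052 by DESeq2, -0.0046 with RLE factors, -0.0035 with a stricter filter and -0.0097 with all 12 samples, and Klf13 in the interaction was 0.0047 with a stricter filter. The rest changed sign when 1 sample was left out. These ran, in neonatal KO, from -0.18 to 0.13 for Klf2, -0.26 to 0.26 for Klf4, -0.0035 to 0.26 for Klf11 and -0.56 to 0.15 for Klf15, in adult KO from -0.15 to 0.17 for Klf7 and -0.20 to 0.084 for Klf9, and in the interaction from -0.014 to 0.25 for Klf9, -0.17 to 0.18 for Klf13 and -0.65 to 0.039 for Klf15.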
